A study of Bos taurus with 13 samples.

Results

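bta-miR-873 and bta-miR-22-3p are the 2 mature bovine miRNAs described here, out of 311 miRNAs listed in at least 1 of 13 small RNA libraries from extracellular vesicles (EVs) of bovine follicular fluid. They were chosen as abundant miRNAs with higher values in Always Positive cows (APCs) than in heifers, so the contrast of those groups is given below as a description only. Both miRNAs were listed in all 13 libraries and passed the filter on low counts in every comparison.

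Follicular fluid was taken by ovum pick-up from large follicles of postpartum cows and of heifers, that is, females that have not calved. Each library was made from a pool of fluid, and the question was how EV-coupled miRNAs differ with the energy balance of the cow after calving. Transient cows (TCs) were in negative energy balance at weeks 5 to 6 after calving (3 pools, from 11 cows) and in positive balance at weeks 9 to 10 (3 pools, from 7 cows). Always Negative cows (ANCs; 2 pools, from 2 cows) stayed in negative balance, and APCs (2 pools, from 2 cows) stayed in positive balance, both sampled at weeks 5 to 6. Heifers (3 pools, from 8 animals) were all in positive balance and have not calved, so energy balance and calving cannot be told apart when ANCs or the TCs of weeks 5 to 6 are set against them. The APCs and the TCs of weeks 9 to 10 shared positive balance with the heifers and differed from them in having calved. Because the ANC and APC pools come from 2 cows each, and TC pools of both times may share cows, p-values measure the spread between these pools and not between many animals. The ages of the animals were not given in the labels.

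miRNAs are short RNAs that guide a protein complex to messenger RNAs and lower their translation or stability. Those carried in vesicles are protected from degradation and can pass from one cell of the follicle to another. A miRNA hairpin can release a mature RNA from each of its arms, named 5p and 3p, of which one is often far more abundant. miR-22-3p is the abundant arm of the miR-22 hairpin and is known to target the transcript of estrogen receptor alpha. The gene of miR-873 lies beside that of miR-876, and in the RefSeq annotation of the ARS-UCD2.0 assembly both lie within LINGO2, a gene of a membrane protein of neurons. In the same annotation the miR-22 gene overlaps TLCD2 and a further hairpin, miR-3600, which was not analysed here. Whether reads were shared between overlapping hairpins is not given in the sources used here.

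The libraries held between 145030 and 421435 miRNA reads, with a median of 327359, so that 3 reads corresponded to between 7.12 and 20.69 read counts scaled to a common library total (CPM). Levels below are CPM with all 13 libraries scaled together, and intervals on shares or ratios of reads cover counting error only. All 5 of the granulosa cell miRNAs checked were present in every pool, with a summed level between 4736 and 14570 CPM. Markers of other cells were present too. The 6 leukocyte miRNAs summed to between 744.8 and 1580.0 CPM in ANCs, between 2144 and 3971 CPM in APCs, between 2762 and 3063 CPM in TCs at weeks 5 to 6, between 1573 and 4820.0 CPM in TCs at weeks 9 to 10 and between 4868 and 6077 CPM in heifers. Of 3 erythroid miRNAs, 2 were listed in all 13 libraries, and bta-miR-144 only in those of heifers. The sum of the 2 lay between 130.7 and 1145 CPM in ANCs, with 1 of them at 0 in a pool, and between 2137 and 8934 CPM in APCs. It lay between 1717 and 3958 CPM in heifers and between 750.5 and 10960.0 CPM in TCs. Liver miR-122 lay between 328.8 and 5858 CPM in ANCs and APCs, between 2682 and 5712 CPM in TCs and between 5369 and 17620.0 CPM in heifers. The 7 epithelial miRNAs were present in every pool, at between 5150.0 and 32530.0 CPM in sum. The part of these other cells in the levels of miR-873 and miR-22-3p was not tested.

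miR-873 was highest in the APC pools and lowest in a heifer pool. Its level was 8598 and 10300.0 CPM in the APC pools. It was 4626, 1053 and 9518 CPM in the TC pools of weeks 5 to 6 (replicates 1, 2 and 3) and 2365 and 4787 CPM in the ANC pools. The third TC pool of weeks 5 to 6 thus lay between the APC pools, while the second lay below both ANC pools. The TC pools of weeks 9 to 10 held 764, 2105 and 1793 CPM and the heifer pools 850.0, 497 and 5065 CPM. Heifers 1 and 2 were among the 3 lowest pools, whereas heifer 3 was above both ANC pools.

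The counts behind these levels were large enough that counting error was small beside the spread between pools. miR-873 had 2506 and 3084 reads in the APC pools and 172, 199 and 1879 reads in the heifer pools. Its share of the miRNA reads ran from 0.0524% (95% exact binomial interval 0.0453 to 0.0602%) in heifer 2 to 0.766% (0.736 to 0.796%) in APC 1. It ranked between 28th and 112th in abundance in a library.

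miR-22-3p followed a similar order of pools over a narrower range. Its level was 7754 and 10764 CPM in the APC pools. It was 5014, 2079 and 10483 CPM in the TC pools of weeks 5 to 6 and 2365 and 5818 CPM in the ANC pools. Again the third of these TC pools lay between the APC pools and the second lay below both ANC pools. The place of the third depended on the scaling. Its share of the miRNA reads, 0.841%, was above those of both APC pools (0.690% and 0.765%). Its value as deposited, 9844, was above theirs too (7318 and 9569). The TC pools of weeks 9 to 10 held 1542, 2976 and 2297 CPM and the heifer pools 2654, 1643 and 3633 CPM. Heifer 3 was the highest heifer pool, as for miR-873, but stayed below the second ANC pool. miR-22-3p ranked between 28th and 75th in a library.

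**Figure D1:**
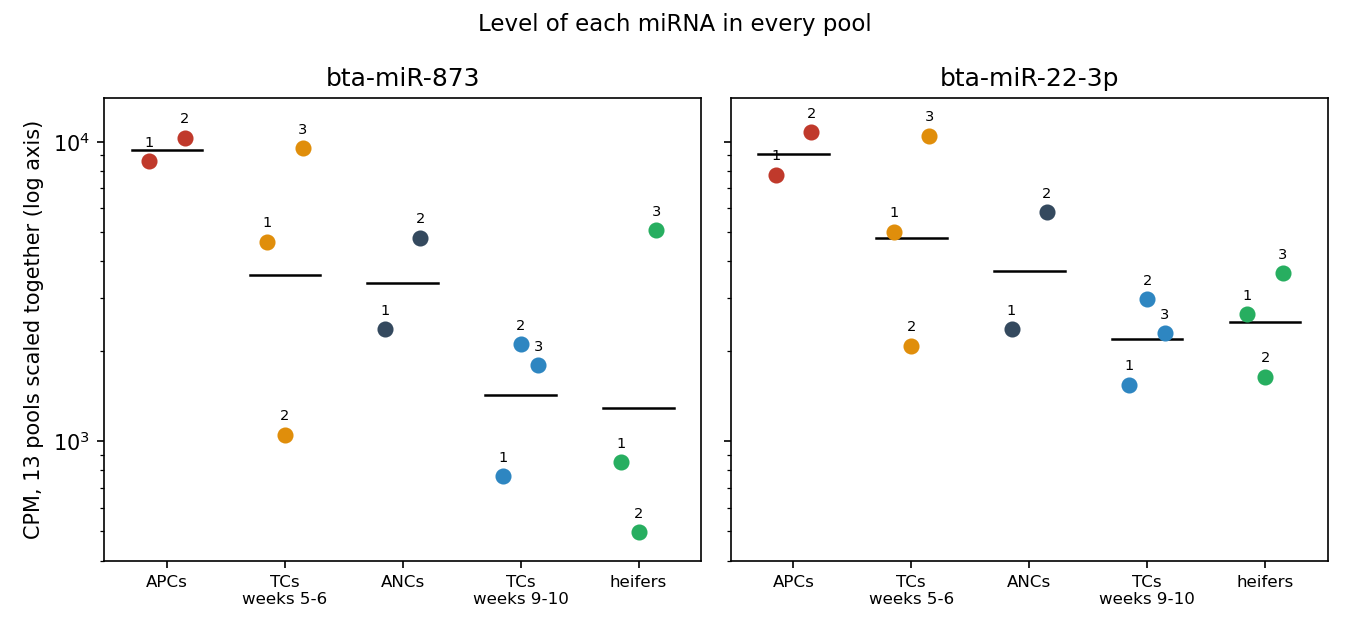
Level of miR-873 (left) and miR-22-3p (right) in each of the 13 pools, in CPM on a log axis, with the replicate number above each point and the mean of the log2 levels as a bar. Both APC pools lie at the top in both panels together with replicate 3 of the TCs at weeks 5 to 6, and miR-873 in heifers splits into 2 low pools and 1 high pool at 5065 CPM.

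By group mean in CPM, both miRNAs came in the order APCs, TCs at weeks 5 to 6, ANCs, heifers and TCs at weeks 9 to 10. For miR-873 the means were 9449 ± 1204 CPM (SD, n = 2), 5066 ± 4250.0 (n = 3), 3576 ± 1713 (n = 2), 2137 ± 2541 (n = 3) and 1554 ± 702 (n = 3). For miR-22-3p they were 9259 ± 2129 CPM, 5859 ± 4265, 4092 ± 2442, 2643 ± 995 and 2272 ± 718, with the same numbers of pools. By the mean of the log2 levels, miR-873 was instead higher in TCs at weeks 9 to 10 (10.48) than in heifers (10.34). Neighbouring groups in the order by CPM overlapped for both miRNAs, so the order of neighbours is not separated from the spread between pools.

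The spread within a group differed between the miRNAs. The pooled SD of the log2 level within groups was 1.28 for miR-873 against 0.77 for miR-22-3p, while the median over 244 miRNAs was 0.57. By this measure miR-873 was the 9th most variable of all and the 2nd most variable of the 58 miRNAs that were at least as abundant as it. miR-22-3p was 58th of 244. For miR-873 the wide groups were the heifers and the TCs of weeks 5 to 6, each with a low and a high pool.

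Groups that took no part in choosing the miRNAs were compared with limma on log2(CPM + 5), each pair of groups scaled on its own. A miRNA was called at a log2 fold change of at least 1 in size, p below 0.05 and a Benjamini-Hochberg adjusted p of at most 0.25, as in the methods of the study. In none of these 3 comparisons was either miRNA called, and limma called 0% of all miRNAs in each. The edgeR quasi-likelihood test on recovered reads called 0 in each as well, and DESeq2 called 0, 1 and 4 in the order given here.

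The ANCs were set against the TCs at weeks 5 to 6, both in negative energy balance. The ANC values of both miRNAs fell inside the range of the TC pools. The log2 difference, ANCs minus TCs, was -0.11 for miR-873 (95% interval -2.18 to 1.96; limma adjusted p = 0.986; two-sided exact permutation p = 1). For miR-22-3p it was -0.38 (-2.09 to 1.32; limma adjusted p = 0.894; exact permutation p = 0.8). The intervals include a 3-fold change or more in either direction for miR-873, so these pools did not show whether the groups differ. Of 225 miRNAs, 18 had an unadjusted p under 0.05. Both differences turned positive without the third TC pool (0.56 and 0.15) and without the first ANC pool (0.49 and 0.36), and that of miR-873 also without the first TC pool (0.16).

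The TCs at weeks 9 to 10 were set against the TCs at weeks 5 to 6. Energy balance and week after calving changed together between them and cannot be told apart. Both miRNAs had lower mean levels at the later time, but the second of the early pools lay within the range of the late pools. The log2 difference, late minus early, was -1.32 for miR-873 (95% interval -3.00 to 0.36; limma adjusted p = 0.573; exact permutation p = 0.3). For miR-22-3p it was -1.108 (-2.36 to 0.15; limma adjusted p = 0.573; exact permutation p = 0.3). The smallest p that 3 pools against 3 can give is 0.1. Of 224 miRNAs, 12 had an unadjusted p under 0.05. This outcome depended on single pools. Without the second early pool, the differences were -2.18 and -1.69 (limma adjusted p = 0.147 for both), both miRNAs were called, and 22 miRNAs were called in all. Without the third early pool they shrank to -0.63 and -0.55.

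The ANCs were set against the TCs at weeks 9 to 10, the former in negative and the latter in positive balance. Both ANC pools were above all 3 TC pools in miR-873, whereas the groups overlapped in miR-22-3p. The share of all miRNAs that separate these 2 groups was not counted. The log2 difference, ANCs minus TCs, was 1.19 for miR-873 (95% interval -0.05 to 2.43; limma adjusted p = 0.609; exact permutation p = 0.2). For miR-22-3p it was 0.71 (-0.43 to 1.85; limma adjusted p = 0.609; exact permutation p = 0.5). The smallest p of 2 pools against 3 is 0.1, and 13 of 233 miRNAs had an unadjusted p under 0.05. By the study's supplementary material, and not by the labels, replicate 1 of each group had its RNA measured on another day than replicates 2 and 3. Whether the libraries were made or sequenced by that day is not known here. The levels were also read within these days of RNA measurement. On the first day miR-873 was 2365 CPM in the ANC pool against 764 CPM in the TC pool, and on the second 4787 CPM against 2105 and 1793 CPM. With the day as a covariate the difference was 1.39 and miR-873 was called (limma adjusted p = 0.174), with 6 miRNAs called in all. In the other tested comparisons the same covariate gave 0 called miRNAs. There miR-873 stood at -0.08 in ANCs against TCs at weeks 5 to 6 (limma adjusted p = 0.9997). It stood at -1.32 in late against early TCs (limma adjusted p = 0.680). Without the second ANC pool the differences were 0.65 for miR-873 and 0.03 for miR-22-3p, and without the first they were 1.80 and 1.46.

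**Figure D2:**
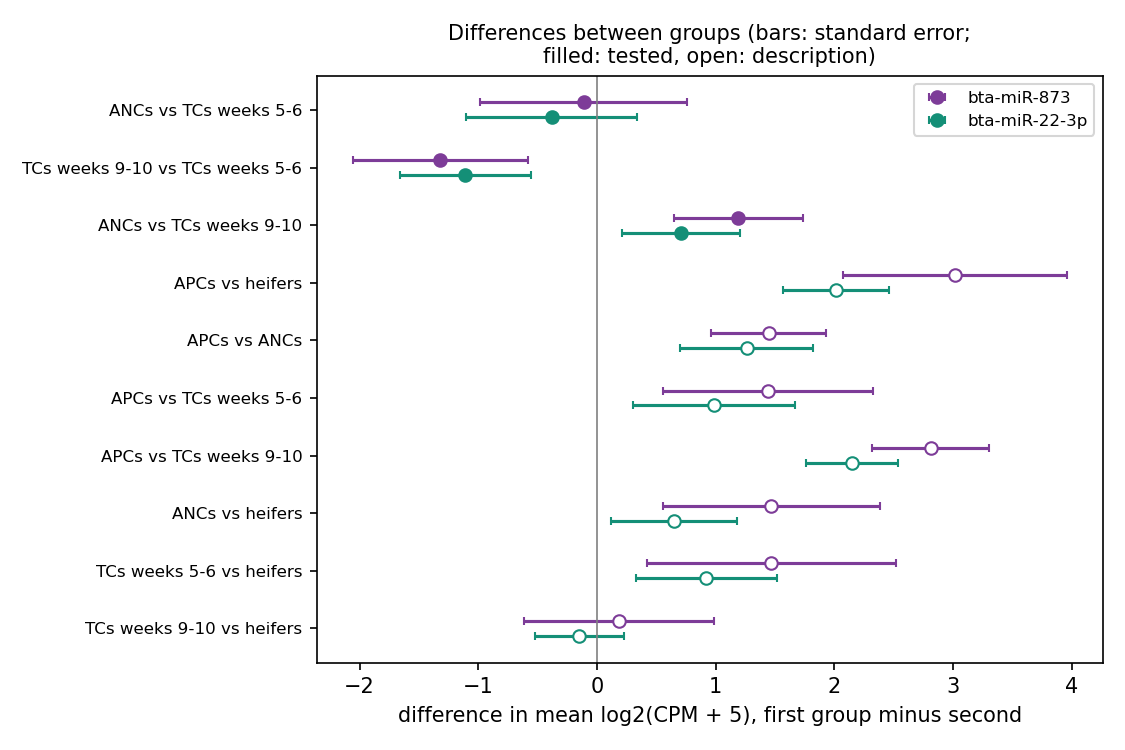
Difference in mean log2(CPM + 5) between the first and the second group named on each line, for miR-873 and miR-22-3p, with the standard error as a bar. Filled points are the 3 tested comparisons and open points are descriptions that involve the APC or heifer pools. The open points against APCs are all above 0, from 0.99 to 3.01.

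APCs against heifers is the contrast that chose both miRNAs. On the scale of this pair, miR-873 was 9582 ± 819 CPM in APCs (SD, n = 2). It was 2004 ± 2435 CPM in heifers (n = 3). The difference of the mean log2 levels was 3.01 (SE 0.94), or 8.08-fold. This is larger than the ratio of the CPM means, which heifer 3 raised in the heifers. miR-22-3p was 9369 ± 1768 CPM against 2429 ± 980.4 CPM. Its difference of the mean log2 levels was 2.01 (SE 0.44), or 4.04-fold. Neither miRNA overlapped between the groups, which their choice from this contrast favoured. How many of all miRNAs separate these pools in the same way was not counted. In this comparison limma called 12.4% of miRNAs, 29 of 233, of which 22 (9.44%) were higher in APCs and 7 (3%) lower. Both chosen miRNAs were among the 22, which their choice from this same contrast favoured, so it is no test of them. miR-873 had the largest and miR-22-3p the 12th largest difference of the 22, and they were the 42nd and 40th most abundant of the 233.

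The size of this difference moved with the scaling and with single pools. Scaled by total reads, the median difference of all miRNAs was -0.54, that is, below 0, and the calls turned to 14 higher and 49 lower. On that scale miR-873 stood at 2.43 and miR-22-3p at 1.43. The 3 pools with the lowest TMM scaling factors, APC 2 (0.711), TC week 5 to 6 replicate 3 (0.803) and APC 1 (0.891), were also the 3 highest in both miRNAs, and the part of the scaling in those levels was not tested beyond the alternatives given. Leaving out 1 pool at a time gave 2.33 to 4.03 for miR-873, the higher value without heifer 3, and 1.71 to 2.31 for miR-22-3p.

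**Figure D3:**
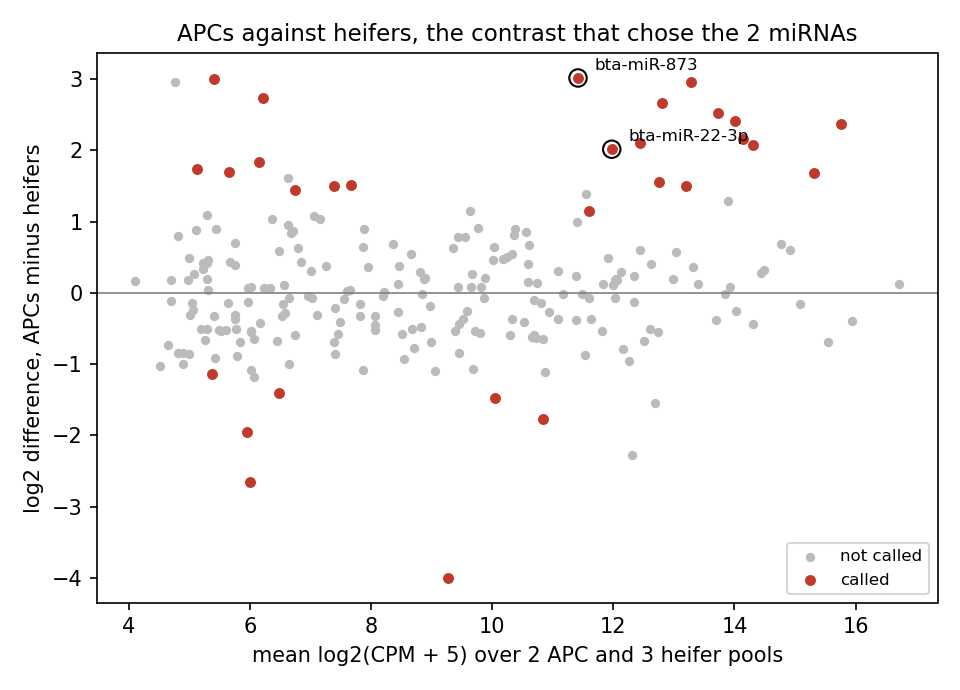
Log2 difference of APCs minus heifers against the mean log2(CPM + 5) over those 5 pools, for the 233 miRNAs tested, with called miRNAs in red. The circled miRNAs, at 3.01 and 2.01, were chosen from this contrast, so their place is a description.

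The APCs were also above each of the other cow groups in mean level. These comparisons share the APC pools with the choice of the miRNAs and with each other, so they are descriptions. The log2 difference of APCs minus ANCs was 1.45 (SE 0.49) for miR-873 and 1.26 (SE 0.56) for miR-22-3p. Against the TCs at weeks 5 to 6, where groups overlapped, it was 1.44 (SE 0.88) and 0.99 (SE 0.68), and without the second of these TC pools 0.55 and 0.38. Against the TCs at weeks 9 to 10 it was 2.81 (SE 0.49) and 2.15 (SE 0.39), close in size to those against heifers. Without the first ANC pool, the differences of APCs from ANCs were 0.92 and 0.60, and without the second they were 1.98 and 1.93.

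Against the heifers, the other cows differed less than the APCs. The choice of the miRNAs for high values in APCs over heifers favours that order, so it is a description only. For miR-873 the log2 difference was 1.47 (SE 0.91) in ANCs, 1.47 (SE 1.05) in TCs at weeks 5 to 6 and 0.19 (SE 0.80) in TCs at weeks 9 to 10. For miR-22-3p it was 0.65 (SE 0.53), 0.92 (SE 0.60) and -0.15 (SE 0.37). For each miRNA, the TCs at weeks 9 to 10 thus differed from heifers by less than the standard error. Single pools moved these values. Leaving out 1 pool gave 0.75 to 2.48 for miR-873 in ANCs (the lowest without heifer 2, the highest without heifer 3) and -0.03 to 1.38 for miR-22-3p (without the second and the first ANC pool). In TCs at weeks 5 to 6 it gave 0.80 (without heifer 2) to 2.49 (without the second TC pool) and 0.41 to 1.66 (without the third and the second TC pool). In TCs at weeks 9 to 10 the sign was not stable, at -0.47 to 1.17 for miR-873 (without heifer 2 and heifer 3) and -0.43 to 0.12 for miR-22-3p (without the same pools).

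The TC pools of weeks 5 to 6 and the heifer pools deviated together by replicate number, although they come from different animals. Read in these pairs, miR-873 was higher in the TC pool by 2.43, 1.06 and 0.92 on the log2 scale. miR-22-3p was higher by 0.91, 0.32 and 1.54. Both were thus higher in the TC pool in 3 of 3 pairs, a count that depends on how the pools are paired. In miR-873 the second TC pool (1053 CPM) lay below heifer 3 (5065 CPM). The share of all miRNAs higher in each pair was not counted, so the count is no support for a difference. With the replicate number as a block the standard errors fell to 0.34 and 0.27 around the same differences. The pairs were adopted because these same pools deviated together, which favours smaller standard errors, so that fall is no separate support. The block moved the calls over all miRNAs in this comparison from 16 to 29. As the heifer pools took part in choosing both miRNAs, these differences remain a description.

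Both miRNAs varied together across pools. Over the 8 TC and ANC pools, which were not used to choose them, Pearson's r of the log2 levels was 0.968 (two-sided exact permutation p = 0.000124) and Spearman's rho 0.976 (exact permutation p = 0.000397). This was the only relation tested. Pools were permuted without regard to their groups, so differences between the group means enter r and its p. That TC pools of both times may share cows was not accounted for either. Without the 2 pools farthest from the median of miR-873, r was 0.928 (n = 6; exact permutation p = 0.00694). Leaving out 1 pool at a time gave r from 0.9495 to 0.987. The days of RNA measurement hold 3 and 5 of these pools, too few for a value within a day. Over all 13 pools, which include the APC and heifer pools that chose the miRNAs, r was 0.933, and 0.885 after each group's mean was taken off. Both axes share the library scaling of each pool. With total reads in its place r over the 8 pools was 0.967. Total reads are also a divisor common to both axes, so the part of shared scaling in r was not tested.

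**Figure D4:**
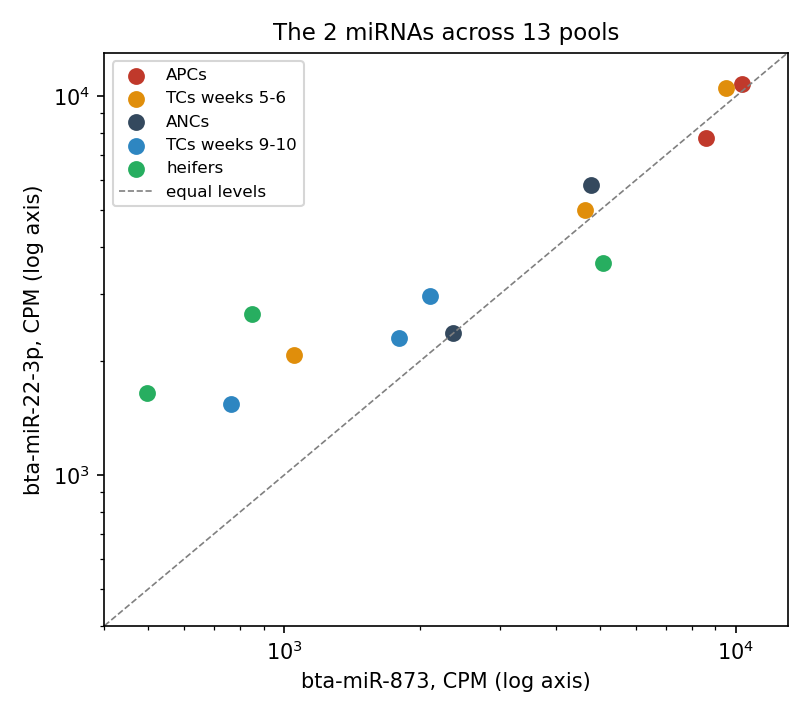
Level of miR-22-3p against miR-873 in the 13 pools, both in CPM on log axes, coloured by group, with a dashed line at equal levels. The pools run along 1 band from heifer 2 (497 and 1643 CPM) to APC 2, and both the heifer and the APC pools lie on both sides of the line.

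The ratio of their reads within a library, which needs no scaling, was near 1 in the APC pools and in some other cow pools, and spread widely in heifers. miR-873 had 1.109 and 0.957 reads for each read of miR-22-3p in the APC pools. It had 1.0 and 0.823 in the ANC pools, and 0.923, 0.506 and 0.908 in the TC pools of weeks 5 to 6. The TC pools of weeks 9 to 10 had 0.495, 0.707 and 0.781, and the heifer pools 0.320, 0.302 and 1.39. Heifers therefore held both the lowest and the highest of the 13 ratios, and the counting intervals of heifer 3 (1.299 to 1.496) and heifer 2 (0.257 to 0.355) were far apart.

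Other miRNAs followed them as closely. By Pearson's r of the log2 levels over the 13 pools, a description over 243 other miRNAs, the 5 most like miR-873 were bta-miR-502a (0.949), bta-miR-320a (0.946), bta-miR-1839 (0.946), miR-22-3p itself (0.933) and bta-miR-103 (0.922). For miR-22-3p they were bta-miR-103 (0.992), bta-miR-107 (0.988), bta-miR-23b-3p (0.982), bta-miR-320a (0.967) and bta-miR-23a (0.960), with miR-873 in 8th place. miR-103 and miR-107 are near-identical in sequence, as are miR-23a and miR-23b-3p, so their reads may have been split between copies. miR-320a, a miRNA made without the usual first cleavage of its hairpin, was among the 5 for both and ran from 20177 CPM in heifer 2 to 168849 CPM in the third TC pool of weeks 5 to 6.

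The partners of each miRNA on the genome followed it less closely over the 13 pools. bta-miR-22-5p, the other arm of the same hairpin, was 21st in likeness to miR-22-3p (r = 0.835), and bta-miR-876, the neighbour of miR-873, was 36th in likeness to miR-873 (r = 0.597). After each group's mean was taken off, miR-876 followed miR-873 at r = 0.913, close to the value of miR-502a (0.911), and miR-22-5p followed miR-22-3p at 0.839. miR-22-5p was far less abundant, at 103 and 197 CPM in the APC pools and 98.8, 57.4 and 105 CPM in the heifer pools. The APC and heifer pools overlapped on this scale. On the scale of the pair they did not, with a lowest APC value of 107.8 and a highest heifer value of 99.8 CPM, and the log2 difference was 0.87 (SE 0.45). miR-876 had between 2 and 19 reads in a library and was below the count filter in APCs against heifers.

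Within a library, the APC pools therefore stood apart in the point value of the ratio of each miRNA to its partner, though not in its counting interval. miR-22-3p had 75.3 (95% exact interval 52.6 to 111.9) and 54.6 (42.2 to 71.9) reads for each read of miR-22-5p in the APC pools. In the other 11 pools this ratio ran from 19.2 to 39.1. Both APC intervals overlapped that of replicate 2 of the TCs at weeks 9 to 10 (24.8 to 60.5). At the pooled ratio of those 11, the APC pools would have held 74.3 and 106.0 reads of miR-22-5p, and they held 30 and 59. For miR-873 over miR-876 the ratio was 835.3 (286 to 4053) and 616.8 (264 to 1901) in the APC pools and from 49.8 to 185.0 in the others. In the APC pools it rests on 3 and 5 reads of miR-876, where the pooled ratio would give 22.1 and 27.2. Both APC intervals overlapped that of replicate 2 of the TCs at weeks 5 to 6 (50.9 to 1533). Since the APC pools were chosen for high values of the numerators, these ratios carry no test.

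**Figure D5:**
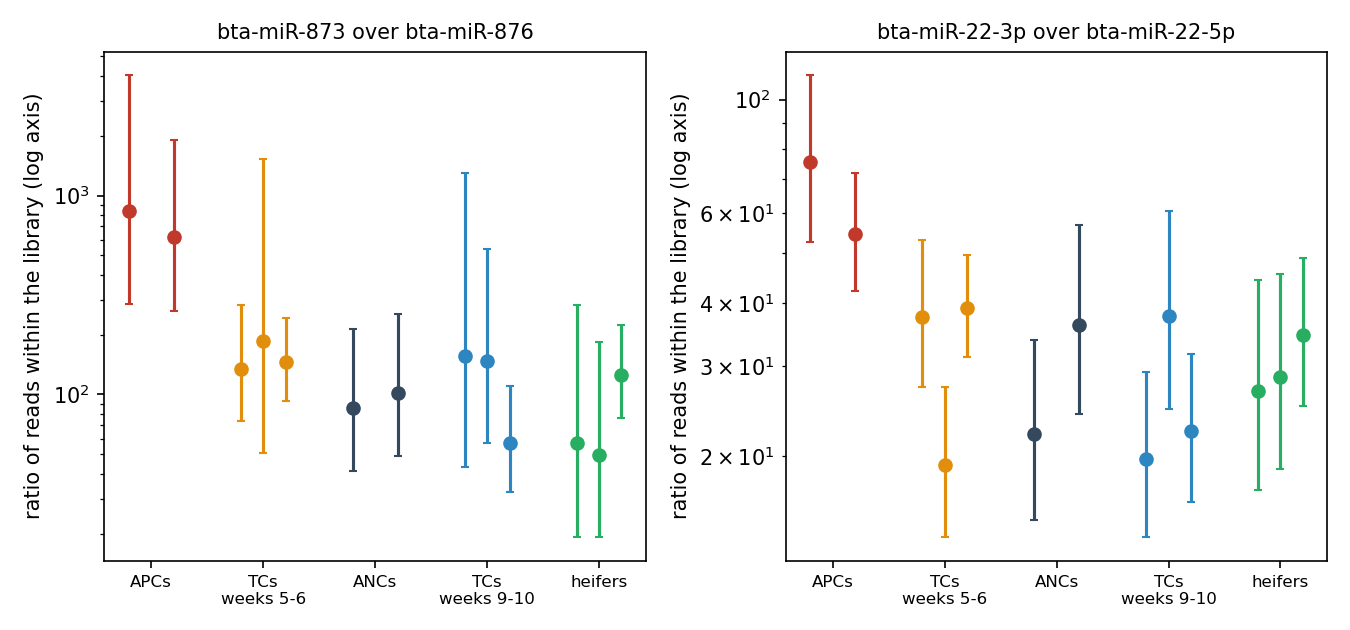
Reads of miR-873 for each read of miR-876 (left) and of miR-22-3p for each read of miR-22-5p (right) in each library, on log axes, with 95% exact counting intervals as bars. The APC pools are above the point values of all 11 other pools in both panels, and the intervals on the left are wide because miR-876 had at most 19 reads.

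Other miRNAs known to target estrogen receptor alpha were counted beside miR-22-3p. None of the 5 that could be tested was called in ANCs against TCs at weeks 5 to 6, and none of 6 was called in the other tested comparisons or in APCs against heifers, where 12.4% of all miRNAs were called. Their median log2 difference was -0.50, against -0.09 for all miRNAs, in the first. It was 0.12 (all miRNAs -0.05) in late against early TCs, -0.42 (all -0.19) in ANCs against late TCs and -0.28 (all 0.03) in APCs against heifers. In ANCs against TCs at weeks 5 to 6, bta-miR-221 had a log2 difference of -1.45 (SE 0.45; limma adjusted p = 0.399) where miR-22-3p had -0.38. Of 14 granulosa and theca cell miRNAs tested, none was called in these 4 comparisons. Their medians were -0.19, -0.26, -0.35 and 0.00 in the same order of comparisons.

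Both lists held calls in other contrasts with heifers. In ANCs against heifers, where 18.6% of all miRNAs were called (6.51% higher and 12.1% lower in ANCs), 4 of 6 miRNAs of the estrogen receptor list were lower, with a list median of -1.10 against 0.00 for all miRNAs, and miR-22-3p stood at 0.65. Of the granulosa and theca list, 3 of 14 were higher and 1 lower there. In TCs at weeks 5 to 6 against heifers, where 6.96% were called (1.74% higher and 5.22% lower in TCs), 1 of 6 and 2 of 14 were called, the former lower and the latter higher. Neither list held a call in TCs at weeks 9 to 10 against heifers (0% of all miRNAs) or in APCs against ANCs (0%), TCs at weeks 5 to 6 (0%) and TCs at weeks 9 to 10 (10%).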

How the data were processed

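EVs were isolated by ultracentrifugation, libraries made with a QIAseq miRNA kit, adapters trimmed with cutadapt 1.11 and reads mapped to UMD3.1 with Bowtie2 2.2.2, per the submitters' processing notes and methods; whether molecular identifiers were used is not given in the sources used here. The authors deposited 1 list per pool of TMM-normalised CPM, the same quantity in all 13, with totals from 822818 to 1251164. The 7 deposited lists whose totals exceed what plain CPM allows were handled as a normalised signal, scaled by the authors with TMM. The 3681 deposited values were whole multiples of 1 read (within 0.1 read), from which counts were recovered.

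Groups followed the labels. Each comparison used miRNAs listed for both groups, TMM factors on recovered counts and filterByExpr (minimum count 10, total 15) in edgeR 4.0.16, then limma 3.58.1 (trend) on log2(CPM + 5) in R 4.3.3. Fold changes are on that scale, which understates those of low miRNAs. Scripts were tested on simulated data. Alternatives were pseudocounts of 1 and 20, no filter, total reads, relative log expression, the deposited values, all 13 libraries in 1 fit, a replicate block, edgeR, DESeq2 1.42.0, the day of RNA measurement and leaving out each pool. Named miRNAs were both chosen ones, their genomic partners and the 5 most alike by r. The miRNAs, lists and markers were chosen with earlier results of these data known.

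Replicate numbers were taken as pairs where at least 3 same-numbered pairs all had deviations correlated above 0.1, which held for TCs at weeks 5 to 6 and heifers (0.216, 0.377 and 0.385); comparisons with 2 pairs were not judged. Depth was 145030 to 421435 reads per library. Mature sequences were not used here.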

Additional observations from a re-analysis of the deposited data

How the results depend on the processing

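In the tested comparisons, the correlation and APCs against heifers, 159 values kept their side of the threshold or moved by less than the spread between pools, 12 moved, 8 reversed and 4 became called. In the other comparisons with the APC or heifer pools, whose alternatives were added after seeing the data, 153 values moved by less than that spread and 5 by more. Moved by less or by more, 7 of them changed sign, namely 4 of miR-873 and 2 of miR-22-3p in TCs at weeks 9 to 10 against heifers and 1 of miR-22-3p in ANCs against heifers. In ANCs against TCs at weeks 5 to 6, the log2 difference of miR-873 reversed to 0.13 with total reads. With a replicate block, in which the third TC pool has no partner and carries no weight, miR-873 was 0.56, miR-22-3p 0.15 and 2 miRNAs were called; leaving out 1 pool gave -0.88 to 0.56, -1.11 to 0.36 and 0 to 7 called, the reversals being 0.16, 0.56 and 0.49 for miR-873 and 0.15 and 0.36 for miR-22-3p. In late against early TCs, DESeq2 called 1 miRNA, and leaving out 1 pool gave -2.18 to -0.63, -1.69 to -0.55 and 0 to 22 called. In ANCs against TCs at weeks 9 to 10 the calls were 2 with total reads, 1 with all libraries in 1 fit, 4 with DESeq2, 6 with the day and 27 with the replicate block. miR-873 was called with the block (1.37, limma adjusted p = 0.0123; correlations of same-numbered deviations 0.402 and 0.5, but only 2 pairs) and with the day (1.39), while leaving out 1 pool gave 0.65 to 1.80, 0.03 to 1.46 and 0 to 5 called. The cause of these moves was not tested.

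In APCs against heifers, miR-22-3p moved to 1.43 with total reads, and leaving out 1 pool gave 2.33 to 4.03 and 1.71 to 2.31. In APCs against TCs at weeks 9 to 10, total reads gave 2.24 and 1.58 and the deposited values 1.78 for miR-22-3p. In APCs against ANCs, leaving out 1 pool gave 0.92 to 1.98 for miR-873 and 0.60 to 1.93 for miR-22-3p. In the tested comparisons the replicate block changed no other call of either miRNA. With 2 or 3 pools a group, no exact permutation p can fall below 0.1.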
